A study of Homo sapiens with 21 samples.

Results

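*EXOC8*, *HSPA8* and *KCTD12* were the genes whose transcripts carried many HNRNPK clusters in the cytoplasmic fraction and almost none in the nuclear fraction. They were selected on the cluster counts themselves, as the genes with at least 10 clusters in both cytoplasmic libraries and at most 1 in each nuclear library, and they are 3 of the 18322 named genes with a cluster in any library and 0.0808% of the 3713 genes that met the cytoplasmic limit. The contrast between cytoplasmic and nuclear cluster numbers is therefore what defines the genes and is given as a description. The genes held 35 of 201726 clusters in the parental cytoplasm, 35 of 177530 in the *KRT19* KO cytoplasm, 3 of 200387 in the parental nucleus and 2 of 199119 in the *KRT19* KO nucleus.

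HNRNPK-bound RNA was mapped by PAR-CLIP in cells of the established triple-negative breast cancer line MDA-MB-231 and in a derivative of it in which *KRT19*, the gene for keratin 19, was knocked out with CRISPR-Cas9 (*KRT19* KO). All cells were grown with 4-thiouridine and UV-irradiated, so that RNA touching the protein was crosslinked, and the antibody also recovered a band assigned to HNRNPJ, a putative splice form. The 4 libraries were parental cytoplasm, *KRT19* KO cytoplasm, parental nucleus and *KRT19* KO nucleus, with 1 library per condition. No difference below has a replicate check, no p-value was computed, and every interval is a 95% exact interval that covers counting error alone.

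In PAR-CLIP sequencing reports a crosslinked 4-thiouridine as C where the RNA had U. A cluster is a stretch of overlapping reads with such T-to-C changes, called by the authors in each library separately. HNRNPK is an RNA-binding protein with KH domains that prefers C-rich and pyrimidine-rich RNA, resides mostly in the nucleus and shuttles to the cytoplasm, where it takes part in the control of mRNA translation and stability. *EXOC8* (Exo84) is a subunit of the exocyst, the complex that tethers secretory vesicles to the plasma membrane. *HSPA8* (HSC70) is the constitutively expressed cytosolic chaperone of the HSP70 family. *KCTD12* is an auxiliary subunit of GABA-B receptors with a BTB domain.

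*EXOC8* (ENSG00000116903.7_7) lies on the minus strand of GRCh37 at chr1:231468499-231473598 and consists of 1 exon, with 2175 nt of coding sequence and 2818 nt of 3'UTR. *KCTD12* (ENSG00000178695.6_7) lies on the minus strand at chr13:77454310-77460540 and also consists of 1 exon, with 975 nt of coding sequence and 4999 nt of 3'UTR. *HSPA8* (ENSG00000109971.14_16) lies on the minus strand of chromosome 11, and its canonical transcript, chr11:122928197-122932844, has 9 exons, 1938 nt of coding sequence and 248 nt of 3'UTR. All 75 clusters of these genes were on the minus strand. Their deposited sequences were identical to GRCh37 at 75 of 75 positions, and the deposited class was the GENCODE feature at the midpoint of the cluster for each of the 74 clusters not classed as stop codon.

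The sequences below are the bound stretches on which the results turn, read 5' to 3' on the sense strand from the deposited cluster sequences, with runs of 2 or more C in capitals. The first 3 are the positions with a nuclear cluster, and the last 4 are positions bound in both cytoplasmic libraries. Stretches longer than 30 nt were limited to their first 30 nt.
*EXOC8* 3'UTR, all 4 libraries, chr1:231471167-231471191: tcttaaaaatacaaaaatcaaaaag
*KCTD12* 3'UTR, all 4 libraries, chr13:77455285-77455305: cttactataaatcatttaaaa
*HSPA8* intron 8, parental nucleus, chr11:122928923-122928948: ttttttttttttttCCtCCCCCactc
*EXOC8* 3'UTR, both cytoplasms, chr1:231470404-231470428: tttcagttgctaattaattagcagc
*EXOC8* 3'UTR, both cytoplasms, chr1:231470753-231470782: tctttcttctttttttttttCCCCacagta
*HSPA8* exon 5, both cytoplasms, chr11:122930557-122930582: attttattgctgagtttaagcgcaag
*KCTD12* 3'UTR, both cytoplasms, chr13:77457909-77457938: atcacttattaaaaatCCttattttctCCa

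The stretches printed for the sites with a cluster in all 4 libraries, in *EXOC8* and *KCTD12*, were rich in A and T and held no adjacent C. Both cytoplasmic *EXOC8* clusters at this site were longer than the printed stretch and held CCC. The same was true of both cytoplasmic *KCTD12* clusters at chr13:77457896-77457938, whose CCC lies beyond the printed bases. The only nuclear cluster of *HSPA8* was a tract of T followed by C, within an intron.

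Before the genes are described, the fraction labels were compared with transcripts of known location. Levels are given as RPM, which is reads per 1000000 reads in clusters of the library. *NEAT1*, a nuclear-retained RNA, had 226.4 and 204 RPM in the parental and *KRT19* KO cytoplasm, and 789 and 1092 in the nuclei. *KCNQ1OT1* was likewise higher in the nuclei, with 22.5 and 57.4 RPM in the cytoplasms against 45.5 and 167 in the nuclei. *MALAT1*, another nuclear RNA, went against the labels, with 1229 and 842 RPM in the cytoplasms and 888 and 548 in the nuclei. Intronic clusters made up 61.2% and 49.7% of the cytoplasmic and 67.3% and 61.8% of the nuclear clusters, so all 4 libraries held intronic RNA. *VIM*, *CD44* and *AXL*, expressed by this cell line, had clusters in all 4 libraries. *KRT19* had 1 cluster in each cytoplasm, with 7 and 5 reads, and none in the nuclei, too few to check the genotype. The cytoplasmic libraries had 5551612 (parental) and 6216226 (*KRT19* KO) reads in clusters, and the nuclear ones 3537577 and 3252800.

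The plot of clusters along the mRNAs shows where HNRNPK was crosslinked.

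**Figure D1:**
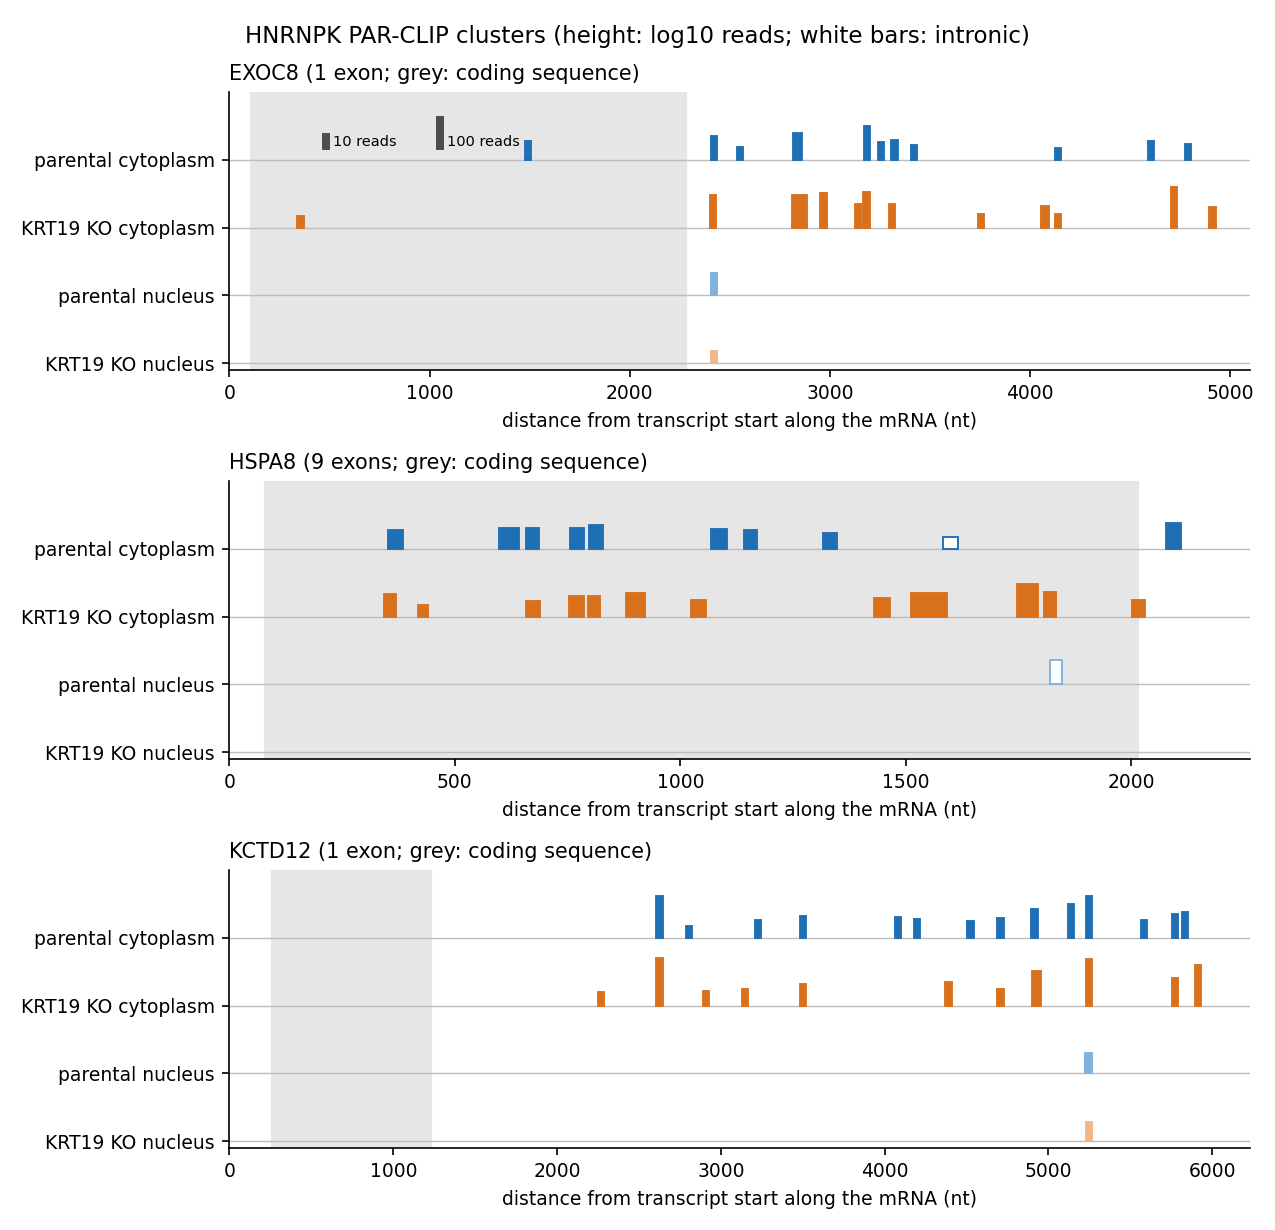
Position of every cluster of *EXOC8*, *HSPA8* and *KCTD12* in each library, by distance from the transcript start in nt, with bar height on a log10 scale of reads, short clusters widened to be visible, coding sequence in grey and intronic clusters as white bars at the nearest exonic position. The clusters of *EXOC8* and *KCTD12* fell almost entirely in the 3'UTR and those of *HSPA8* in the coding sequence, and each nuclear row holds at most 1 cluster.

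*EXOC8* was bound in its 3'UTR. Of its clusters, 10 of 11 in the parental cytoplasm and 11 of 12 in the *KRT19* KO cytoplasm were 3'UTR clusters, and the other in each library was coding. The midpoints of the 21 cytoplasmic 3'UTR clusters lay between 135 and 2630 nt after the end of the coding sequence, with a median of 1030 nt. The most-read stretch in the parental library, at chr1:231470403-231470428, held 97 of the gene's 233 reads. In *KRT19* KO cells the most-read cluster, at chr1:231468863-231468893, held 243 of 746 reads, and no cluster was called there in the parental cytoplasm.

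*KCTD12* was bound in its 3'UTR alone, in 14 of 14 parental and 11 of 11 *KRT19* KO cytoplasmic clusters. They lay between 1035 and 4680 nt after the coding sequence, with a median of 3292 nt, and none lay in the coding sequence or the 5'UTR. A pair of sites carried most of the reads. The site at chr13:77457896-77457938 held 290 reads in parental and 613 in *KRT19* KO cytoplasm, and the site at chr13:77455280-77455311 held 275 and 526. The next most-read cluster of the *KRT19* KO cytoplasm was at chr13:77454614-77454645, with 245 reads and no cluster in the parental cytoplasm. That of the parental cytoplasm was at chr13:77455387-77455418, with 95 reads and no cluster in the *KRT19* KO cytoplasm.

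*HSPA8* differed from the other two in where it was bound. In the parental cytoplasm 8 of 10 clusters were coding, 1 was in the 3'UTR and 1 in intron 7. In the *KRT19* KO cytoplasm 11 of 12 were coding and 1 was at the stop codon. Exon 5 alone held 5 coding clusters in each library, with 83 parental and 74 *KRT19* KO reads. The most-read clusters were elsewhere and were not shared: 31 reads in the 3'UTR at chr11:122928351-122928384 in parental cytoplasm and 88 reads in exon 8 at chr11:122929000-122929045 in *KRT19* KO cytoplasm. The intronic cluster of the parental cytoplasm, with 5 reads from 1 unique read, ended 1 nt before exon 8.

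Among all clusters, 3'UTR clusters made up 10.7% and coding clusters 2.81% in the parental cytoplasm, and 16.0% and 4.79% in the *KRT19* KO cytoplasm. Of the 70 cytoplasmic clusters of the 3 genes, 47 were in the 3'UTR by GENCODE, 22 in the coding sequence and 1 in an intron. Since *EXOC8* and *KCTD12* have no intron, and the rule limits nuclear clusters, this make-up is not independent of how the genes were chosen.

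*HSPA8* has many processed pseudogenes, and this bears on how its reads were placed. None of the 75 clusters had a second exact copy in GRCh37, but 16 of the 22 cytoplasmic *HSPA8* clusters, with 80% of its cytoplasmic reads, had at least 1 further genomic copy with up to 2 mismatches. For *EXOC8* this held for 2 of 23 clusters with 1.23% of the reads, and for *KCTD12* for 6 of 25 with 2.34%. Clusters assigned to *HSPA8* pseudogenes were few: *HSPA8P8* had 18 reads and *HSPA8P5* had 10 in the parental cytoplasm, and *HSPA8P11* had 5 in the *KRT19* KO cytoplasm. How reads that fit both *HSPA8* and a near copy were placed is not given in the sources used here, so the *HSPA8* values are uncertain in this respect.

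RPM depends on the mRNA level of a gene as well as on binding. mRNA levels were not analysed here. *EXOC8* had 42.0 RPM (36.8 to 47.7) in parental and 120 (112 to 129) in *KRT19* KO cytoplasm, and 5.94 (3.67 to 9.07) and 1.54 (0.499 to 3.59) in the nuclei. *KCTD12* had 157 (146 to 167) and 259 (247 to 272) in the cytoplasms, and 4.52 (2.59 to 7.34) and 4.0 (2.13 to 6.83) in the nuclei. *HSPA8* had 28.1 (23.9 to 32.9) and 42.5 (37.5 to 47.9) in the cytoplasms, 7.35 (4.80 to 10.8) in the parental nucleus and no read in the *KRT19* KO nucleus, where 3 counts would be 0.922 RPM. For each gene the lower cytoplasmic library lay above the higher nuclear one, which the choice of genes favours. Per kb of transcript, a scale that takes out transcript length but not mRNA level, *KCTD12* was highest in both cytoplasms. Its level was 25.2 RPM per kb (23.5 to 26.9) in the parental library and 41.6 RPM per kb (39.6 to 43.6) in the *KRT19* KO library. In parental cytoplasm *HSPA8* followed with 12.4 (10.5 to 14.5) and *EXOC8* with 8.23 (7.21 to 9.36). In *KRT19* KO cytoplasm this order was exchanged, with 23.5 (21.9 to 25.3) for *EXOC8* and 18.8 (16.6 to 21.2) for *HSPA8*. Neighbouring intervals did not overlap in either library. They do not cover the uncertain placement of *HSPA8* reads with near copies.

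**Figure D2:**
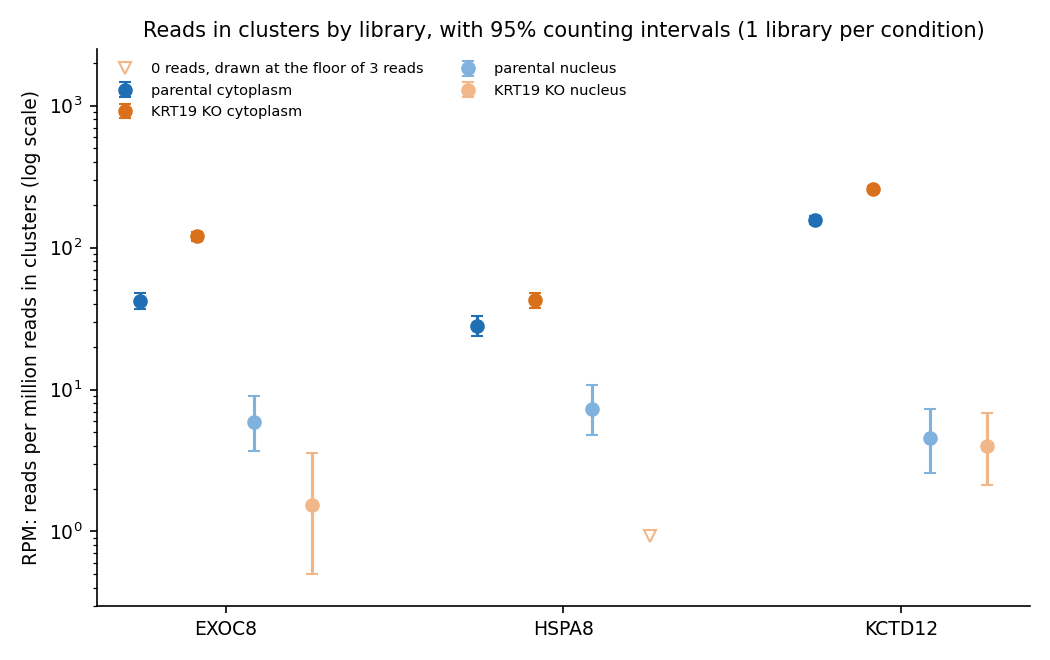
RPM of each gene in each of the 4 libraries on a log scale, with 95% exact Poisson intervals. Nuclear points lie below the cytoplasmic points of the same gene, and *HSPA8* in the *KRT19* KO nucleus, with no reads, is drawn as an open triangle at the level of 3 reads.

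In parental cells the cytoplasmic over nuclear ratio of RPM was 34.6 (21.2 to 60.9) for *KCTD12*, 7.07 (4.52 to 11.6) for *EXOC8* and 3.82 (2.51 to 6.04) for *HSPA8*. In *KRT19* KO cells it was 64.8 (37.8 to 122) for *KCTD12* and 78.1 (33.3 to 241) for *EXOC8*, and *HSPA8* was at least 46.0-fold higher in the cytoplasm, taking 3 counts as the nuclear floor. The interval of parental *KCTD12* lay apart from those of *EXOC8* and *HSPA8*, which overlapped each other, and in *KRT19* KO cells the intervals of *KCTD12* and *EXOC8* overlapped. The same ratio over the reads of all 3'UTR clusters was 5.92 (parental) and 8.73 (*KRT19* KO), and over those of all coding clusters 0.969 and 1.34, respectively. The parental value of all 3'UTR clusters lay inside the *EXOC8* interval. The parental *HSPA8* ratio sets mostly coding cytoplasmic reads against nuclear reads that were all intronic, so it is unlike the ratios of a single class. On unique reads the parental ratio was 64.0 (17.6 to 530) for *KCTD12*, 8.56 (3.22 to 32.2) for *EXOC8* and 1.59 (0.849 to 3.18) for *HSPA8*, with 50 and 13 unique *HSPA8* reads. In *KRT19* KO cells it was 34.5 (14.7 to 107) for *KCTD12* and 89.8 (16.0 to 3554) for *EXOC8*, and *HSPA8* was at least 8.35-fold higher. All these ratios describe the contrast on which the genes were chosen.

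The nuclear clusters rested on few unique reads. *EXOC8* had 21 reads from 4 unique reads in the parental nucleus and 5 reads from 1 unique read in the *KRT19* KO nucleus, both at chr1:231471167-231471191, where the cytoplasmic libraries had 24 and 88 reads. *KCTD12* had 16 reads from 2 unique reads and 13 reads from 5 unique reads, inside the site at chr13:77455280-77455311. Both genes thus kept in the nucleus a site that was also bound in the cytoplasm, 138 nt after the coding sequence in *EXOC8* and 4014 nt after it in *KCTD12*. *HSPA8* had 26 reads from 13 unique reads in the parental nucleus, 12 nt downstream of exon 8 in intron 8, and no cytoplasmic cluster overlapped it. All 5 nuclear clusters had further genomic copies with up to 2 mismatches.

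The *HSPA8* locus was not free of nuclear signal. Introns of *HSPA8* encode small nucleolar RNAs of the *SNORD14* family, and the authors' annotation gave clusters there to the snoRNA and not to *HSPA8*. *SNORD14C* in intron 5 had 98 reads in the parental nucleus and 121 in the parental cytoplasm. *SNORD14D* in intron 6 had 42 reads in the *KRT19* KO nucleus, 219 in the parental cytoplasm and 14 in the *KRT19* KO cytoplasm. *SNORD14E* in intron 8 had 13 reads in the *KRT19* KO nucleus. Counted by position, the *HSPA8* locus had 2 clusters in each nucleus, with 124 reads in parental and 55 in *KRT19* KO nuclei. *HSPA8* would then exceed the limit of 1 nuclear cluster and would not be chosen. On the opposite strand of *EXOC8*, 1 unannotated cluster of 6 reads was called in the parental cytoplasm.

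Crosslinking was read from the share of reads with a T-to-C change. In the parental cytoplasm it was 62.2% (55.7 to 68.5%) for *EXOC8*, 60.9% (52.8 to 68.6%) for *HSPA8* and 62.3% (59.0 to 65.5%) for *KCTD12*. These intervals overlapped one another, so the 3 genes could not be told apart at this depth. In the *KRT19* KO cytoplasm it was 54.6% (50.9 to 58.2%) for *EXOC8*, 59.5% (53.3 to 65.4%) for *HSPA8* and 61.0% (58.6 to 63.4%) for *KCTD12*. The intervals of *EXOC8* and *KCTD12* did not overlap there. Taken over all 3'UTR clusters, T-to-C reads were 53.4% (parental) and 55.1% (*KRT19* KO), and over all coding clusters 63.9% and 55.3%. The whole interval of *KCTD12* was above the 3'UTR value in both libraries, and that of *EXOC8* in the parental library alone. This order depended on the weighting. As a mean over clusters, the share in all 3'UTR clusters was 71.8% in parental and 68.3% in *KRT19* KO cytoplasm. On that scale *KCTD12* was below the 3'UTR value in parental cytoplasm with 67.5% and above it in *KRT19* KO with 69.4%, and *EXOC8* was above it in parental with 78.3% and below it in *KRT19* KO with 62.8%. *HSPA8*, with 66.8% in parental and 64.0% in *KRT19* KO, was below the means over all coding clusters, 84.4% and 75.7%.

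**Figure D3:**
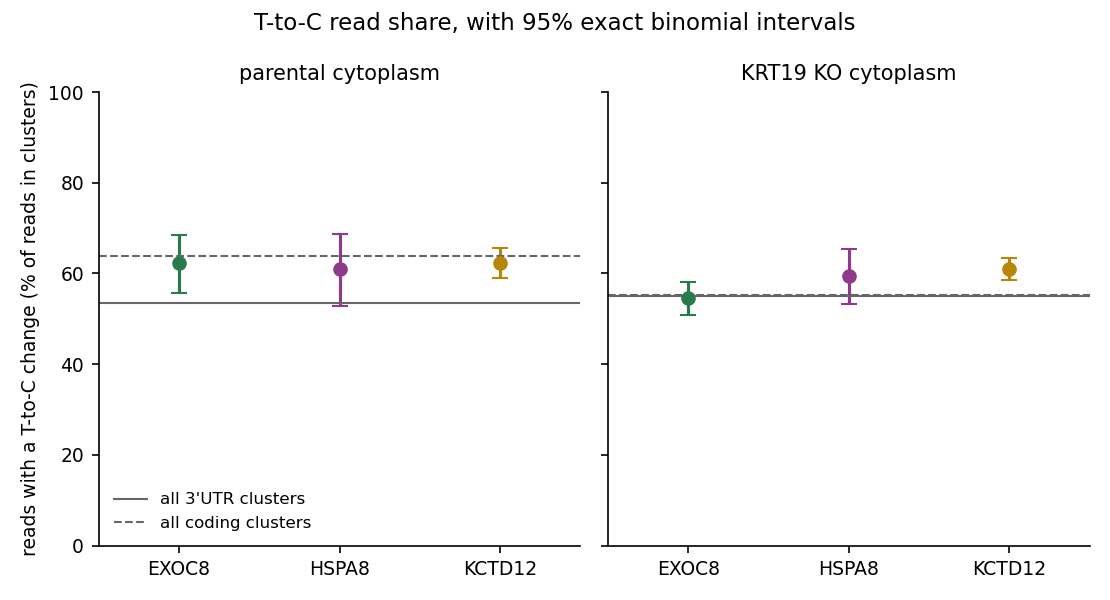
Share of reads with a T-to-C change in the clusters of each gene, in percent, in the parental and *KRT19* KO cytoplasm, with 95% exact binomial intervals and lines for all 3'UTR and all coding clusters. The points lie between 54.6% and 62.3%. The whole interval of *KCTD12* is above the 3'UTR line in both libraries, and that of *EXOC8* in the parental library alone.

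For *EXOC8* 1 stretch lowered the share. The most-read parental stretch had 38.1% T-to-C reads in parental cytoplasm and 28.0% in *KRT19* KO cytoplasm. Without it the parental share of the gene was 79.4%. The *KRT19* KO share without this stretch was not computed, so its part in the difference from *KCTD12* in that library was not tested. Leaving out the most-read *KRT19* KO cluster, which was at another site, gave 53.9%. Clusters of few reads often had T-to-C changes in all reads, as in the *EXOC8* cluster of 12 reads at chr1:231468981-231469009. In the nuclei the shares were 28.6% of 21 reads and 100% of 5 reads for *EXOC8*, 31.2% of 16 and 30.8% of 13 for *KCTD12*, and 53.8% of 26 for *HSPA8*. Their intervals were wide, for example 11.3 to 52.2% for *EXOC8* in the parental nucleus.

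The mean number of conversion locations per cluster was higher in *KRT19* KO than in parental cytoplasm for every member, 5.00 against 1.91 for *EXOC8*, 3.17 against 1.80 for *HSPA8* and 6.18 against 3.64 for *KCTD12*. The same held over all 3'UTR clusters, with 5.00 against 3.67, and over all coding clusters, with 2.87 against 1.87. Unique reads moved with it: they were 45.6% of the reads in clusters in the *KRT19* KO cytoplasm and 30.9% in the parental cytoplasm. The part of this in the numbers of conversion locations was not tested.

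The cytoplasmic clusters fell on 55 sites when same-strand clusters that overlapped by 1 nt or more were joined, and 15 of them had a cluster in both libraries. *EXOC8* shared 5 of 11 parental clusters (45.5%, 16.7 to 76.6%) and 5 of 12 *KRT19* KO clusters (41.7%, 15.2 to 72.3%). *HSPA8* shared 4 of 10 (40%, 12.2 to 73.8%) and 4 of 12 (33.3%, 9.92 to 65.1%). *KCTD12* shared 6 of 14 (42.9%, 17.7 to 71.1%) and 6 of 11 (54.5%, 23.4 to 83.3%). Over all 3'UTR clusters the shares were 48.0% of parental and 36.1% of *KRT19* KO clusters, inside the intervals of *EXOC8* and *KCTD12*. Over all coding clusters they were 29.1% and 19.2%, inside the intervals of *HSPA8*.

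Shared sites held most of the reads of *KCTD12*, 77.5% in parental and 81.9% in *KRT19* KO cytoplasm. For *EXOC8* they held 75.5% and 42.5%, since the *KRT19* KO clusters of 243 and 114 reads had no parental counterpart. For *HSPA8* they held 44.9% and 22.7%. The 20 sites called in the parental cytoplasm alone had 5 to 95 reads with a median of 11.5, and the 20 called in the *KRT19* KO cytoplasm alone had 5 to 245 reads with a median of 17.5. The smallest clusters in both libraries had 5 reads, so a site without a cluster may have had reads below the calling limit.

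**Figure D4:**
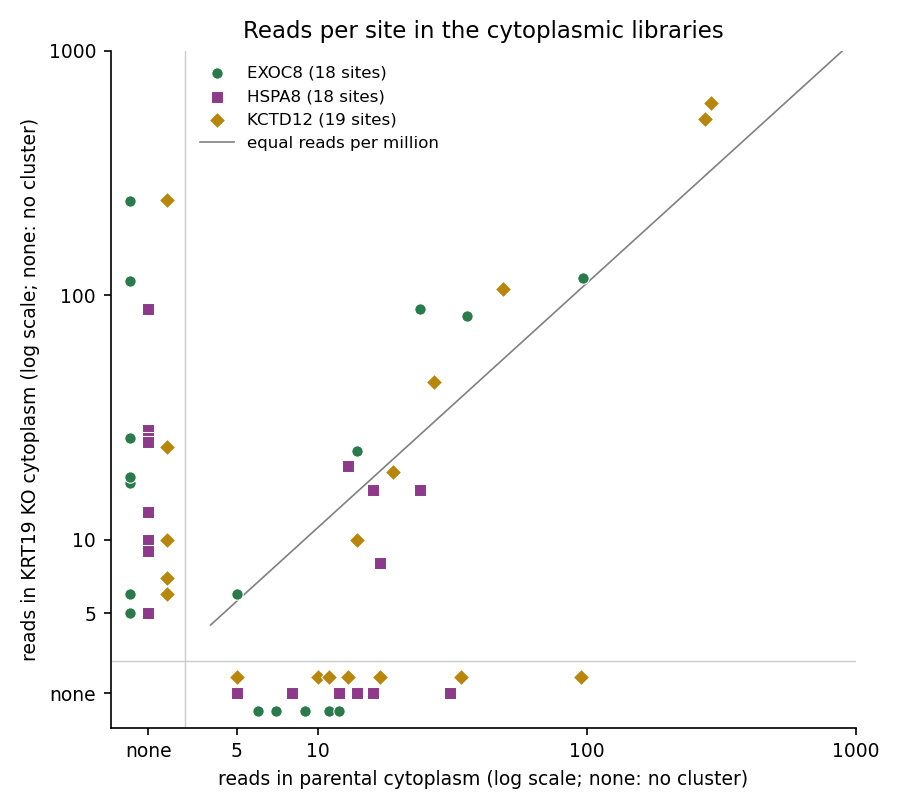
Reads of each of the 55 cytoplasmic sites in the parental (horizontal axis) and *KRT19* KO (vertical axis) library on log scales, with sites that had no cluster in a library placed in the strips marked none and a line for equal RPM. Of the 15 sites in both libraries 10 lie above the line, and the most-read sites of *KCTD12* are at the upper right.

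RPM was higher in *KRT19* KO than in parental cytoplasm for the 3 genes when scaled to all reads in clusters. The ratio was 2.86 (2.47 to 3.33) for *EXOC8*, with 746 against 233 reads, 1.65 (1.52 to 1.80) for *KCTD12*, with 1610 against 870 reads, and 1.51 (1.24 to 1.85) for *HSPA8*, with 264 against 156 reads. Across the 3713 genes with at least 10 clusters in both cytoplasms the median ratio was 0.875, with quartiles of 0.595 and 1.36. Of these genes 10.1% were more than 2-fold higher and 15.8% more than 2-fold lower in *KRT19* KO cytoplasm. *EXOC8* was the 1 member past 2-fold, above 96.1% of the genes, while *KCTD12* was above 83.6% and *HSPA8* above 79.9%.

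These ratios moved with the scale. Of the reads in parental cytoplasm 33.9% were in 3'UTR and coding clusters, and of those in *KRT19* KO cytoplasm 53.3%, and the clusters of the members were nearly all of these classes. Per read in 3'UTR and coding clusters, *EXOC8* was still higher in *KRT19* KO cytoplasm, at 1.82 (1.57 to 2.12), whereas *KCTD12* was at 1.05 (0.968 to 1.14) and *HSPA8* at 0.962 (0.786 to 1.18), both with intervals that include 1. Against the genes that, like the members, had at most 1 intronic cluster in each cytoplasm, *EXOC8* was above 91.9%, *KCTD12* above 74.8% and *HSPA8* above 70.0%.

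The sites within a gene did not move alike. At the 5 shared *EXOC8* sites the ratio of RPM ran from 1.07 to 3.27, the highest at the stretch 138 nt after the coding sequence that was also bound in the nuclei. Its most-read parental stretch was at 1.09, with 97 and 118 reads. At the 6 shared *KCTD12* sites it ran from 0.638 to 1.93, with 1.89 and 1.71 at the most-read sites. At the 4 shared *HSPA8* sites it ran from 0.420 to 1.37, and 1 of the 4 was higher in *KRT19* KO. On shared sites alone, a restriction chosen after seeing the data, the ratio was 1.61 (1.33 to 1.95) for *EXOC8*, 1.75 (1.59 to 1.92) for *KCTD12* and 0.766 (0.533 to 1.10) for *HSPA8*. The higher *HSPA8* total in *KRT19* KO cytoplasm thus came from clusters called there alone, among them the 88 reads in exon 8.

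In base composition, the clusters of *EXOC8* and *KCTD12* were rich in T and A. T made up 36.2% and A 34.0% of the bases in parental *EXOC8* clusters, and 38.3% and 35.4% in parental *KCTD12* clusters, while C made up 17.8% and 16.9%. Over all 3'UTR clusters of that library C made up 23.7% and T 36.7%. *HSPA8* clusters held 18.7% C against 29.3% over all coding clusters, and 23.5% G against 15.3%. All members were below their class in C, also in the *KRT19* KO cytoplasm, where C made up 18.2% in *EXOC8*, 16.4% in *KCTD12* and 20.6% in *HSPA8* clusters, against 24.2% in all 3'UTR and 31.5% in all coding clusters.

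HNRNPK clusters were searched on the sense strand for the C-rich consensus [U/A][U/C/A]CCC. It occurred in 3 of 35 parental clusters (8.57%, 1.80 to 23.1%) and 5 of 35 *KRT19* KO clusters (14.3%, 4.81 to 30.3%) of the 3 genes. The shares over all 3'UTR clusters were 24.8% and 25.3%, and over all coding clusters 25% and 28.0%. The parental interval lay below its class values and the *KRT19* KO interval held the 3'UTR and coding values. CCC alone was in 7 of 35 parental clusters (20%, 8.44 to 36.9%) and 10 of 35 *KRT19* KO clusters (28.6%, 14.6 to 46.3%), against 34.8% and 36.5% of all 3'UTR clusters. Both of these intervals held the 3'UTR value. Over all coding clusters CCC was in 39.9% and 45.1%, above the parental interval and inside the *KRT19* KO one. With CCC alone the parental difference was thus seen against the coding value and not against the 3'UTR value. No motif was found in the parental clusters of *HSPA8*, which allows a share of up to 30.8%, and a missing match says only that these letters are not in the cluster. Of the clusters 27 of 35 in parental and 21 of 35 in *KRT19* KO cytoplasm ended in G, the base after which RNase T1, used to trim the RNA, cuts. Over all 3'UTR clusters this share was 50.8% and 51.6%, and over all coding clusters 57.0% and 56.3%.

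The selection was next placed among all genes. Of the 3713 genes with at least 10 clusters in both cytoplasms, 0.0808% had at most 1 cluster in each nucleus, and these are the 3 members. The nuclear share of a gene's clusters over the 4 libraries had a median of 49.1% and quartiles of 43.0% and 54.1%, and was 4.35% for *HSPA8*, 7.41% for *KCTD12* and 8.0% for *EXOC8*. Just outside the rule were 6 genes with 2 clusters in a nucleus, *ATP5G3*, *DTX3L*, *ITPRIPL2*, *MRPS30*, *PPP2CA* and *RRM2*, and no gene had 9 clusters in the cytoplasmic library with fewer of them and at most 1 in each nucleus. *DUSP6* had 9 and 8 cytoplasmic clusters, *FAM134A* 8 and 9, *FZD3* 8 and 8, and *IFIT5* 8 and 10, each with at most 1 cluster in each nucleus. *IFIT5* missed the cytoplasmic limit in the parental library alone, and the others missed it in both libraries. Just inside, *HSPA8* had 10 parental cytoplasmic clusters, and *EXOC8* and *KCTD12* had 1 cluster in each nucleus.

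**Figure D5:**
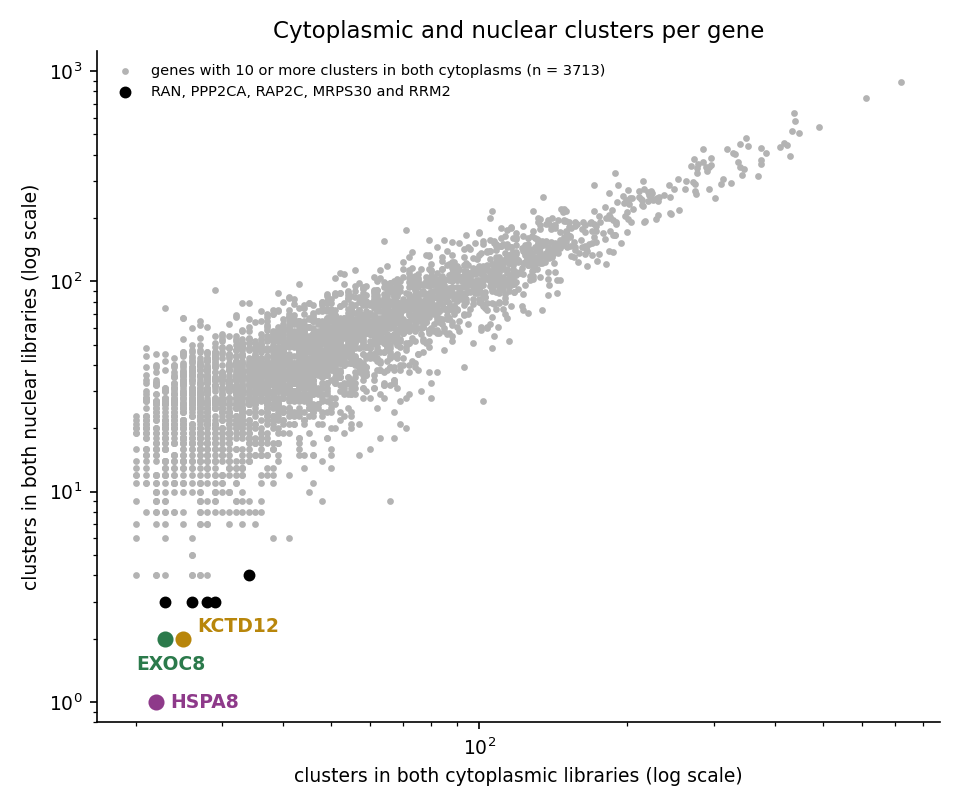
Number of clusters in both cytoplasmic libraries (horizontal axis) and in both nuclear libraries (vertical axis) for the 3713 genes with at least 10 clusters in both cytoplasms, on log scales. *EXOC8*, *HSPA8* and *KCTD12* lie at the lower edge with 2, 1 and 2 nuclear clusters, next to the 5 genes with the next lowest nuclear share, in black.

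The genes most like the members by nuclear share of clusters were *RAN*, a small GTPase of nuclear transport, with 9.38%, *PPP2CA*, a catalytic subunit of protein phosphatase 2A, with 9.68%, *RAP2C* with 10.3%, *MRPS30*, a mitochondrial ribosomal protein, with 10.5%, and *RRM2*, a subunit of ribonucleotide reductase, with 11.5%. *RAN* had 18 and 11 cytoplasmic clusters and 3 and 0 nuclear clusters against 10 and 12 and 1 and 0 in *HSPA8*. Like *HSPA8*, *RAN*, *PPP2CA*, *MRPS30* and *RRM2* have several exons but held at most 1 intronic cluster in each cytoplasm. *MRPS30* was unlike *HSPA8* in that 4 of 17 and 3 of 17 cytoplasmic clusters were exonic, and most were neither exonic nor intronic.

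Genes with few intronic clusters in the cytoplasm did not in general have few nuclear clusters. Of the 210 genes with at most 1 intronic cluster in each cytoplasm, 1.43% met the nuclear limit, and their median nuclear share was 49.2%. These genes were limited by intronic clusters alone, and their other clusters need not be exonic like those of the members, as *MRPS30* shows. When exonic clusters alone were counted on both sides, a view chosen after seeing the data, 461 genes had at least 10 in both cytoplasms, and 20 of them, 4.34%, had at most 1 in each nucleus. *EXOC8* and *KCTD12* were among these 20, while *HSPA8* fell short with 9 exonic clusters in the parental cytoplasm. The other 18 had from 3 nuclear clusters of any class, in *RAN* and *RRM2*, to 191 in *FER*. The median nuclear share of exonic clusters was 22.2% over the 461 genes, with quartiles of 16.3% and 27.9%, against 7.41% for *KCTD12* and 8.0% for *EXOC8*.

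Genes with a single exon were rare in this comparison. Of the 3396 genes matched to GENCODE, 9 had 1 exon, and 2 of these 9 were *KCTD12* and *EXOC8*. *PURB* followed with a nuclear share of 12.0% and *ITPRIPL2* with 15.4%, while the other 5, which include *MALAT1* and *NEAT1*, had between 43.4% and 57.7%. Of the 3387 genes with more exons 1, *HSPA8*, met the rule. *PURB* and *ITPRIPL2* were named after their values were seen.

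The exocyst, HSP70 and KCTD lists give genes related to the members. The HSP70 list is a selection of chaperones and partners, not a whole family. All 9 exocyst genes had clusters, and the 8 other than *EXOC8* held 310 and 182 cytoplasmic and 368 and 276 nuclear clusters, a nuclear share of 56.7%. Of the 8 genes 7 had more nuclear than cytoplasmic clusters. *EXOC4* had 90 clusters in the parental cytoplasm, 89 of them intronic, and 107 in the parental nucleus, and *EXOC6B* had 112 and 123, with 109 and 123 intronic. *EXOC5* had the most exonic clusters after *EXOC8*, 7 in each cytoplasm and 1 in each nucleus. *EXOC1*, *EXOC2* and *EXOC6* had 1, 0 and 3 exonic clusters in the parental cytoplasm. *EXOC8* thus had the highest number of exonic cytoplasmic clusters among the exocyst genes.

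Among 34 HSP70 chaperones and their partners, 29 had a cluster, and the 33 other than *HSPA8* had a nuclear share of 44.2%. *HSPA1A*, *HSPA1L*, *HSPA2* and *BAG6* had no nuclear cluster, with 1, 1, 1 and 2 clusters in the cytoplasm of parental cells and 0 in that of *KRT19* KO cells. Of the 14 others with at least 10 clusters in a cytoplasm, those nearest to *HSPA8* were *BAG2*, a nucleotide exchange regulator of HSP70, with 16 and 18 cytoplasmic and 3 and 6 nuclear clusters, *BAG4* with 6 and 12 against 3 and 4, and *HSP90AA1*, the inducible cytosolic HSP90, with 16 and 22 against 7 and 9. *HSPH1*, an HSP110 exchange factor, had 10 and 12 exonic clusters in the cytoplasms and 1 in each nucleus, but 14 and 5 intronic clusters in the nuclei. *HSPA13* had the most reads of the list in *KRT19* KO cytoplasm, 10369 against 2253 in parental cytoplasm, with 389 and 14 in the nuclei. *HSPA4L* had 965 and 1200 reads in the cytoplasms and 117 and 192 in the nuclei. In *HSPA4*, *HSPA9*, *HSPA14*, *HSP90AB1*, *HSP90B1*, *DNAJB6*, *DNAJC6* and *ST13* the nuclear share lay between 30.4% and 57.4%.

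Of 21 KCTD genes 18 had a cluster, and the 20 other than *KCTD12* had a nuclear share of 48.3%. *KCTD14* had no nuclear cluster, with 0 and 2 in the cytoplasms. The 5 others with at least 10 clusters in both cytoplasms were *KCTD1*, *KCTD3*, *KCTD7*, *KCTD9* and *KCTD20*, with nuclear shares between 36.1% and 53.3%. *KCTD20* had 9 and 16 exonic clusters in the cytoplasms and 0 and 1 in the nuclei, next to 13 and 15 intronic nuclear clusters. *KCTD7* had 54 and 46 cytoplasmic and 50 and 64 nuclear clusters. *KCTD7* had the most reads of the family in the parental cytoplasm, 969 against 870 for *KCTD12*, and *KCTD12* the most in the *KRT19* KO cytoplasm, 1610 against 1182 for *KCTD7*.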

How the data were processed

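HNRNPK PAR-CLIP clusters of 4 libraries, 1 for each of parental and *KRT19* KO cytoplasm and nucleus, were analysed. Lysis with detergent and centrifugation gave the cytosolic fraction according to the methods. A separate paragraph on fractionation takes the nuclear fraction from the washed pellet with Triton X-100, and the PAR-CLIP paragraph does not say whether the nuclear libraries were made in this way. 17 RNA-seq samples were not analysed here. According to the methods, the authors merged identical reads while these still carried adapters and unique molecular identifiers, demultiplexed with bcl2fastq 2.20.0 and cutadapt, mapped to hg19 and called clusters with PARalyzer in PARpipe.

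The authors deposited for each cluster counts of all, unique and T-to-C reads and of conversion locations, without normalization. The T-to-C fraction, the score and the log10 conversion specificity, also deposited, were not used.

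Reads per gene were summed and expressed per 1000000 reads in clusters of the library (RPM). Intervals were exact (Clopper-Pearson for shares, Poisson for counts, conditional for ratios) at 95%, and floors were set at 3 counts. They cover counting error only. Depth was 3252800 to 6216226 reads in clusters. Positions came from GENCODE gene models on GRCh37, and near copies from BLAST 2.17.0 without gaps. Motif, overlap and interval functions were tested on simulated data. Python 3.11.15, pandas 2.3.3, scipy 1.17.1 and matplotlib 3.10.9 were used.

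The members and gene lists were chosen with earlier results of these data known. Named genes were the members, genes of the exocyst, HSP70 and KCTD lists with at least 10 clusters in a cytoplasmic library, the 5 other genes with the lowest nuclear share of clusters among those with at least 10 in both cytoplasms, and *MALAT1*, *NEAT1*, *KCNQ1OT1*, *VIM*, *CD44*, *AXL* and *KRT19* as checks. Genes just outside the rule, genes missing the cytoplasmic limit, 1-exon genes, list genes without a nuclear cluster, genes of the exonic rule, *SNORD14* genes and *HSPA8* pseudogenes were named after their values were seen. Alternatives covered read, unique-read and conversion minimums, overlap, scaling, weighting, the motif and the thresholds of the rule.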

Additional observations from a re-analysis of the deposited data

Results flagged for a closer look

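The direction of the *KRT19* KO to parental ratio of RPM was opposite in the 2 fractions for each of the 3 genes. For *EXOC8* the ratio was 2.86 (2.47 to 3.33) in the cytoplasm and 0.259 (0.0763 to 0.706) in the nucleus, where 21 parental reads stood against 5. For *HSPA8* it was 1.51 (1.24 to 1.85) in the cytoplasm and at most 0.125 in the nucleus, where 26 parental reads stood against none and 3 counts were taken as the floor. Those 26 reads lay in intron 8, whereas the cytoplasmic *HSPA8* clusters were mostly coding, so the 2 ratios cover different parts of the gene. With the snoRNA clusters in its introns, the locus had 124 and 55 nuclear reads. For *KCTD12* it was 1.65 (1.52 to 1.80) in the cytoplasm and 0.884 (0.391 to 1.96) in the nucleus, an interval that includes 1. The difference between the fractions was not tested, since each condition had 1 library. The nuclear values rest on at most 1 cluster per library, which the choice of the genes fixed. Unique reads turned the nuclear direction of *KCTD12* (2 parental, 5 *KRT19* KO, or 2.83 and 8.09 per 1000000 unique reads) and kept that of *EXOC8*, with 4 and 1. No interval was computed for these unique reads, and such low counts settle neither direction. Per read in 3'UTR and coding clusters, the cytoplasmic ratio was 0.962 (0.786 to 1.18) for *HSPA8* and 1.05 (0.968 to 1.14) for *KCTD12*, intervals that both include 1.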

How the results depend on the processing

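Of 93 values under an alternative, 64 stayed within the interval of the reported value or within 1.5 times the reported count, 27 moved and 2 reversed. The 64 include values that could not move, as *HSPA8* had no cluster in the *KRT19* KO nucleus to lose. They also include values with wide intervals, such as the motif share. Where no construction is named, the cause was not tested. No paired analysis was possible because each PAR-CLIP condition had 1 library, and for the same reason no library could be left out. The T-to-C share of a cluster with few reads has a wide interval at this depth, from 22.3 to 95.7% for 1 *EXOC8* cluster of 6 reads.

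With at least 10 reads per cluster, *EXOC8* kept 7 of 11 parental cytoplasmic clusters and 0 of 1 in the *KRT19* KO nucleus. With at least 2 conversion locations, the parental cytoplasm kept 5 *EXOC8*, 6 *HSPA8* and 7 *KCTD12* clusters, and the nuclear counts fell to 0 for *KCTD12* in both nuclei and for *EXOC8* in the *KRT19* KO nucleus. With at least 2 unique reads, *EXOC8* had 0 clusters in the *KRT19* KO nucleus. With at least 2 conversion locations in both libraries, 9 clusters were shared in all, 3 of *EXOC8* and 1 of *HSPA8*.

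As the mean over clusters, the T-to-C share was 78.3% for *EXOC8* and 67.5% for *KCTD12* in parental cytoplasm, and 62.8% and 69.4% in *KRT19* KO cytoplasm, since small clusters then weigh as much as large ones. Without its most-read cluster, the parental *EXOC8* share was 79.4%.

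Per read in 3'UTR and coding clusters, the *KRT19* KO to parental ratio was 1.82 for *EXOC8* and 1.05 for *KCTD12*, and reversed to 0.962 for *HSPA8*. On shared sites, chosen after seeing the data, it was 1.61 for *EXOC8* and reversed to 0.766 for *HSPA8*. Divided by the median of genes, it was 1.89 for *KCTD12*.

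The rule found 7 genes with a minimum of 8 cytoplasmic clusters, the 3 members among them, 0 with a minimum of 15, 0 with no nuclear cluster allowed and 9 with 2 allowed, again with the 3 members. It found 0 genes when clusters of at least 10 reads alone were counted, out of 1973 with 10 or more of them in both cytoplasms. With exonic clusters alone, chosen after seeing the data, it found 20, of which 2 were members.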
